A study of Mus musculus with 6 samples.

Results

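The genes described here belong to the oxidative stress response driven by the transcription factor NRF2 and to the metallothioneins. They are Nfe2l2, which encodes NRF2, the enzyme genes Hmox1, Nqo1, Gclc, Gclm, Txnrd1, Srxn1 and Gsr, and the metallothionein genes Mt1 and Mt2. The 10 genes were chosen by name, with earlier results of these data known, and each was found once among the 17001 rows of the expression table. RNA sequencing had been performed on 6 cultures of primary calvarial preosteoblasts, the precursors of bone-forming osteoblasts, taken from 3-day-old mice and grown in α-MEM with serum. The 3 control libraries carried the genotype NELL2 fx/fx, and the 3 libraries labelled cKO carried Col1-cre; NELL2 fx/fx, so the floxed Nell2 alleles were common to all 6 and Cre was the difference. Cre was driven by a fragment of the mouse Col1a1 promoter, which is active in cells of the osteoblast lineage. The comparison asked how deletion of Nell2 in these cells altered gene expression. The sources used here do not say whether a library came from a single pup or a pool, so p-values measure only the spread between these 6 libraries.

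In unstressed cells, the adaptor KEAP1 holds NRF2 in the cytoplasm and directs it to degradation. When oxidants or electrophiles modify KEAP1, NRF2 accumulates, pairs with a small MAF protein in the nucleus and binds antioxidant response elements near genes for glutathione synthesis, thioredoxin recycling, quinone reduction and heme breakdown. Metallothioneins are small cysteine-rich proteins that bind zinc and copper, and their genes are switched on mainly through metal response elements bound by MTF1. Bone-forming cells secrete large amounts of oxidatively folded collagen, and oxidative stress is known to restrain osteoblast differentiation.

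Values are FPKM (fragments scaled by transcript length and by the number of mapped fragments), so levels of different genes can be compared. The values of a group are listed in the order of its replicates 1, 2 and 3. The 11590 rows that reached 1 FPKM in 3 or more libraries were compared between groups with limma on log2(FPKM + 1), and p-values were adjusted over all of these rows by the Benjamini-Hochberg method. All 10 genes were among them, and none had an FPKM under 4.90 in any library. Fold changes refer to this log2(FPKM + 1) scale, as libraries labelled cKO minus control, and they understate changes of genes with low values. The sum of deposited values per library ranged from 573307 to 606428 FPKM, and sequencing depth is unknown. Markers of the labelled cell type were present, with Col1a1 at a mean of 8300 ± 264 FPKM (SD, n = 3) and the osteoblast transcription factor Runx2 at 13.6 ± 1.36 FPKM (SD, n = 3) in control libraries.

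The targeted gene did not separate the groups. Nell2 was measured at 3.17, 2.59 and 1.88 FPKM in controls. Its level in the cKO-labelled libraries was 5.64, 1.61 and 5.74 FPKM. It was thus above all controls in replicates 1 and 3 of the latter group and below all controls in replicate 2 (log2 fold change 0.48, SE 0.37, adjusted p = 0.591 from limma). FPKM is given per gene and not per exon, so the floxed exons were not assessed separately, and the directions below are those of the libraries as labelled. Among these libraries, replicate 1 also stood apart from the others of its group. Across the tested rows, its correlation with the control libraries was 0.992 to 0.993 (Pearson's r over genes, which are not independent replicates), while it was 0.988 and 0.990 with replicates 2 and 3 of its own group. It was not alone in this, as control replicate 3 correlated at 0.9931 with cKO replicate 1 and at 0.9921 and 0.990 with control replicates 1 and 2. Results are therefore also given without cKO replicate 1. Because that library was picked from these same data for its likeness to the controls, leaving it out favours larger differences. P-values from that fit are therefore not separate support. Y-linked transcripts followed neither label, with Ddx3y at 17.3 FPKM in both control replicate 3 and the library labelled cKO replicate 1, at 15.7 FPKM in cKO replicate 3 and at no more than 0.06 FPKM in the remaining 3 libraries.

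After adjustment in limma, 0% of the 11590 rows (0 rows) had a p-value under 0.05, and none of the 10 genes did. The smallest adjusted p-value was 0.312. At an unadjusted p-value under 0.05, 5.37% of all rows were higher and 7.76% were lower in the libraries labelled cKO. By that unadjusted measure, 3 of the 10 genes were higher, namely Mt1, Mt2 and Hmox1, and 0 were lower. The values of the 2 groups did not overlap, with all libraries labelled cKO above all controls, for the same 3 genes, where 6.51% of all rows did so. In the opposite direction, 11.8% of all rows and 0 of the 10 genes had groups that did not overlap. The median log2 fold change was 0.13 over the 10 genes and -0.02 over all tested rows, and 7 of the 10 were above 0. The median over the 10 genes was 0.08 without cKO replicate 2 and 0.17 without cKO replicate 1. The unadjusted calls among all rows, 622 higher and 899 lower, became 768 higher and 706 lower when the libraries were set to the same median. Under that scaling and under quantile normalization, the directions of the 10 genes did not change, but Nfe2l2 and Gsr joined Mt1, Mt2 and Hmox1, so that 5 of the 10 were higher at an unadjusted p-value under 0.05. The share of all rows that were higher at that threshold was 6.63% with median scaling and 5.93% with quantile normalization (687 higher).

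Among the 10 genes, the metallothioneins differed most between the groups. Mt1 was measured at 223, 282 and 262 FPKM in controls. In the cKO-labelled libraries, it was at 308, 471 and 508 FPKM. Replicate 1 was thus just above the highest control, whereas replicates 2 and 3 were far above it. The means were 256 ± 29.9 FPKM in control libraries and 429 ± 107 FPKM in libraries labelled cKO (SD, n = 3 each), a ratio of 1.68. The log2 fold change was 0.72 with an SE of 0.19 (95% interval 0.26 to 1.18, adjusted p = 0.312 from limma), above that of 99.2% of the tested rows.

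Mt2 behaved alike, from a lower level. The controls had 163, 102 and 140.1 FPKM. The cKO-labelled libraries had 176, 364 and 354 FPKM, and again replicate 1 was the one close to the controls. The means of 135 ± 31.1 and 298 ± 106 FPKM (SD, n = 3 each) gave a ratio of 2.21 and a log2 fold change of 1.09 (SE 0.31, 95% interval 0.37 to 1.82, adjusted p = 0.312 from limma). This fold change was above that of 99.7% of the tested rows. Without cKO replicate 1, the log2 fold change became 0.94 for Mt1 (adjusted p = 0.023) and 1.43 for Mt2 (adjusted p = 0.029, both from limma), and these were the only 2 of the 10 genes with an adjusted p-value under 0.05. In the same fit 1.37% of all rows were higher at that threshold, so many other genes also passed it without this library. It was the most control-like of its group and held the lowest Mt1 and Mt2 values there, so its omission favoured these passes. At an unadjusted p-value under 0.05, 4 of the 10 genes were then higher (Nfe2l2 in addition), beside 9.30% of all rows. When any other single library was left out, neither metallothionein passed.

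Taken as a pair, Mt1 and Mt2 summed to 386, 383 and 402 FPKM in controls, a narrow range. The sum was 484, 835 and 862 FPKM in the cKO-labelled libraries. As a share of all FPKM of a library, this was 0.0651% to 0.0677% in controls and 0.0831%, 0.138% and 0.147% in the latter group. The control libraries were thus steadier in the sum than in either gene, because Mt1 was lowest where Mt2 was highest (replicate 1) and highest where Mt2 was lowest (replicate 2). Accordingly, the ratio of Mt1 to Mt2 was 1.37, 2.77 and 1.87 in controls and 1.74, 1.29 and 1.43 in the cKO-labelled libraries. Within the group labelled cKO, the coefficient of variation was 24.9% for Mt1 and 35.4% for Mt2, against 11.7% and 23.1% in controls.

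**Figure D1:**
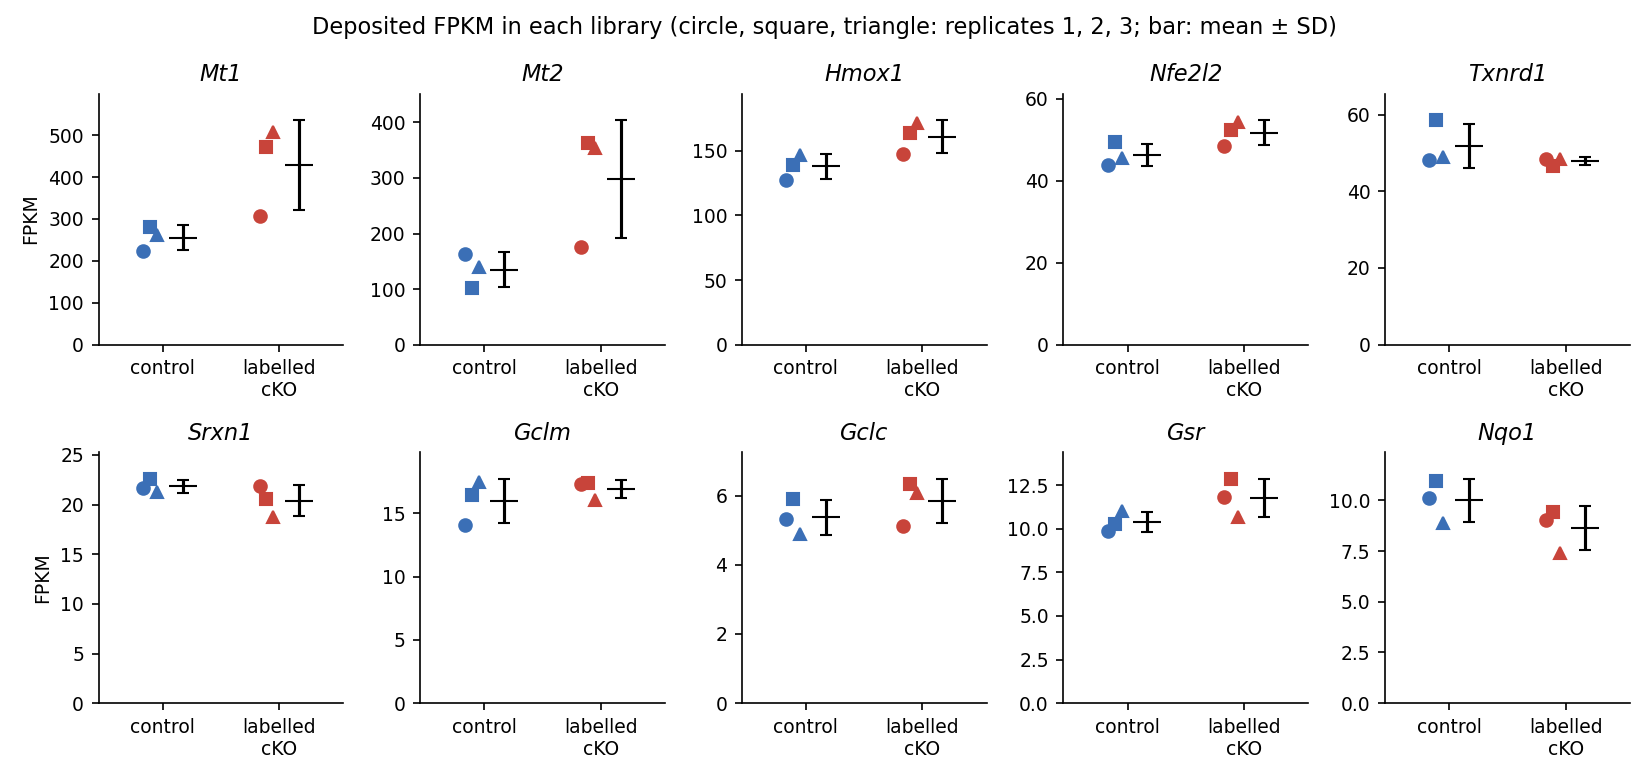
FPKM (y axis, linear from 0) of the 10 genes in each of the 6 libraries, with control in blue and the libraries labelled cKO in red. Symbols give the replicate number and bars the mean ± SD. Mt1 and Mt2 in the libraries labelled cKO replicates 2 and 3 lie between 354 and 508 FPKM, far above the controls, while replicate 1 is close to them.

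The metallothionein genes are neighbours on chromosome 8 of GRCm38, the build named in the submitters' processing notes, both on the plus strand and protein coding. In GENCODE release M21, Mt2 spans positions 94172664 to 94173568 and Mt1 spans 94179082 to 94180327, with 5513 bases between them. Because these neighbours were both higher in the libraries labelled cKO at an unadjusted p-value under 0.05, the sequences before their starts are shown, as given by RefSeq for GRCm38.p6. Each line holds the 250 bases before the RefSeq start, 5′ to 3′ on the plus strand, and capitals mark metal response element cores, searched as TGCACNC or TGCGCNC on both strands. The Mt1 line is chr8:94178839-94179088 and the Mt2 line is chr8:94172368-94172617.
Mt1: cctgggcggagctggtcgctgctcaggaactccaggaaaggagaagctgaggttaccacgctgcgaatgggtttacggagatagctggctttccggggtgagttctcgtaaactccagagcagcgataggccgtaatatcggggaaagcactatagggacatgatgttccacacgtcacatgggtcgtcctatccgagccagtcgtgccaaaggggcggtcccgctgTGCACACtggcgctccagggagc
Mt2: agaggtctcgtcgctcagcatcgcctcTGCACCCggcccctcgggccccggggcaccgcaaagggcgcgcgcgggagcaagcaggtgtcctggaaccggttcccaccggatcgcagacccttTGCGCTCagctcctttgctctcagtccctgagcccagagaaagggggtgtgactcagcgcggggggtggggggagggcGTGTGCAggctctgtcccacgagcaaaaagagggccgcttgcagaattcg

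With the 50 bases after the start included, these windows of 300 bases held 3 cores for Mt1 and 4 for Mt2. Of all 32851 RefSeq promoter windows, 25.7% held at least 1, and the share with at least 3 or 4 was not counted. Further cores followed after the annotated starts. Where transcription began in these cells was not assessed, so cores after a start need not lie in transcribed sequence. The first 200 bases of the GENCODE transcript held 4 cores in Mt1 and 3 in Mt2, of which the first pair in Mt1 also lies in its RefSeq window. At least 4 were found in 0.118% and at least 3 in 0.750% of 21208 protein-coding transcripts, and at least 1 in 21.0%. The first pair of cores of each transcript is printed here on the plus strand, at chr8:94179089-94179117 for Mt1 and chr8:94172674-94172703 for Mt2, with the cores in capitals. Those of Mt2 read in the opposite direction. A match is a description of the letters and not a measured binding site.
Mt1: tcTGCACTCcgcccgaaaagTGCGCTCgg
Mt2: gcGTGTGCAggcggcgggggcGCGTGCAtg

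The gene of the regulator MTF1 and that of a zinc exporter it is known to control differed little between the groups. Mtf1 was at 2.17, 2.30 and 2.08 FPKM in controls and lower in each of the cKO-labelled libraries, at 1.84, 1.99 and 2.05 FPKM (log2 fold change -0.11, SE 0.06, adjusted p = 0.494 from limma). The zinc exporter gene Slc30a1 was at 5.2 ± 0.680 FPKM in controls and 4.92 ± 0.214 FPKM in libraries labelled cKO (SD, n = 3 each), a log2 fold change of -0.06 (95% interval -0.28 to 0.15) that was 0.02 without control replicate 3. Of the metal-handling genes listed, these included, 18 of the 21 found could be tested, none was higher and 2 were lower at an unadjusted p-value under 0.05, where 7.76% of all rows were lower, so the count was near the background. The median log2 fold change was -0.06. Those 2 were Ccs, the copper chaperone of superoxide dismutase (log2 fold change -0.23, SE 0.07), and the zinc transporter gene Slc30a6 (log2 fold change -0.22, SE 0.07), both with an adjusted p of 0.312 from limma. The third metallothionein gene, Mt3, was below the filter, with 0 to 2.57 FPKM in controls and 0.23 to 0.46 FPKM in libraries labelled cKO.

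Hmox1 encodes heme oxygenase 1, which breaks heme down to biliverdin, iron and carbon monoxide. It lies on chromosome 8 from 75093621 to 75100589 (plus strand, GRCm38) and was measured at 128, 139 and 146.7 FPKM in controls. In the cKO-labelled libraries, it was at 147.2, 164 and 172 FPKM. The lowest of these exceeded the highest control by less than 1 FPKM, so the groups were separate only narrowly. The means were 138 ± 9.56 and 161 ± 12.5 FPKM (SD, n = 3 each), a ratio of 1.17 and a log2 fold change of 0.22 (SE 0.09, 95% interval 0.02 to 0.42, adjusted p = 0.354 from limma). The unadjusted p-value was 0.036, or 0.080 with Y-linked expression as a covariate, and it was above 0.05 when control replicate 1 or 2 or cKO replicate 2 or 3 was left out.

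Nfe2l2 itself (chromosome 2, 75675513 to 75704641, minus strand) was well expressed, above 89.9% of all rows. It was at 43.9, 49.3 and 45.5 FPKM in controls and at 48.5, 52.5 and 54.3 FPKM in the cKO-labelled libraries. Replicate 1 of the latter lay below the highest control, so the groups overlapped, and the log2 fold change of 0.16 (SE 0.07, 95% interval -0.02 to 0.33) had an adjusted p of 0.414 in limma. NRF2 is controlled largely through protein stability, which these values do not measure. The inhibitor gene Keap1 was nearly constant, with 22.4 ± 0.295 FPKM in controls and 22.6 ± 0.498 FPKM in libraries labelled cKO (SD, n = 3 each) and a log2 fold change of 0.01 (95% interval -0.12 to 0.14). The competing repressor gene Bach1 was at 10.1 ± 0.812 and 10.8 ± 0.944 FPKM and the partner gene Mafg at 15.9 ± 2.15 and 17.2 ± 1.94 FPKM (SD, n = 3 each), with adjusted p-values of 0.675 and 0.706 in limma. Of the 9 regulators listed, all were tested and 2 were higher at an unadjusted p-value under 0.05, beside 5.37% of all rows. These were Sqstm1, which encodes the autophagy receptor p62 that can sequester KEAP1 (194 ± 9.24 against 239.6 ± 31.1 FPKM, log2 fold change 0.30, adjusted p = 0.329), and the small MAF gene Mafk (7.24 ± 0.507 against 8.95 ± 0.938 FPKM, log2 fold change 0.27, adjusted p = 0.317).

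Glutathione synthesis begins with glutamate-cysteine ligase, made of a catalytic subunit (Gclc) and a modifier subunit (Gclm). Gclc (chromosome 9, 77754535 to 77794485, plus strand) was the lowest of the 10 genes, at 5.32, 5.89 and 4.90 FPKM in controls and at 5.12, 6.34 and 6.07 FPKM in the cKO-labelled libraries. Gclm (chromosome 3, 122245557 to 122270732, plus strand) was at 14.1, 16.4 and 17.5 FPKM in controls and at 17.3, 17.4 and 16.1 FPKM in libraries labelled cKO. Both sets of values overlapped between the groups. The log2 fold changes were 0.10 (95% interval -0.12 to 0.33) for Gclc and 0.08 (95% interval -0.13 to 0.29) for Gclm, with adjusted p-values of 0.652 and 0.704 in limma, and without control replicate 1 that of Gclm was -0.0017. That of Gclc ran from 0.05, without control replicate 3 or cKO replicate 2, to 0.18 without cKO replicate 1. The modifier exceeded the catalytic transcript 2.65- to 3.56-fold in controls and 2.65- to 3.38-fold in libraries labelled cKO. Gsr (chromosome 8, 33652523 to 33698163, plus strand), which encodes the reductase that regenerates glutathione, was at 9.89, 10.3 and 10.99 FPKM in controls. It was at 11.8, 12.8 and 10.7 FPKM in libraries labelled cKO, overlapping the controls only through replicate 3 (log2 fold change 0.16, 95% interval -0.03 to 0.36, adjusted p = 0.437 from limma), and the log2 fold change was 0.10 without cKO replicate 2.

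In the thioredoxin branch, both genes were slightly lower on average in the libraries labelled cKO. Txnrd1 (chromosome 10, 82833951 to 82897712, plus strand), which encodes the cytosolic thioredoxin reductase, was at 48.0, 58.5 and 49.0 FPKM in controls and at 48.5, 46.6 and 48.5 FPKM in the cKO-labelled libraries. Srxn1 (chromosome 2, 152105516 to 152111376, plus strand), the sulfiredoxin that repairs overoxidized peroxiredoxins, was at 21.6, 22.6 and 21.3 FPKM in controls and at 21.9, 20.5 and 18.8 FPKM in libraries labelled cKO. The log2 fold changes were -0.11 (95% interval -0.31 to 0.10) and -0.10 (95% interval -0.27 to 0.08), with adjusted p-values of 0.608 and 0.589 in limma. Without control replicate 2 that of Txnrd1 was -0.02, and that of Srxn1 was -0.04 without cKO replicate 3 and -0.15 without cKO replicate 1. Nqo1 (chromosome 8, 107388225 to 107403206, minus strand), a quinone reductase widely used as a readout of NRF2 activity, was at 10.1, 10.98 and 8.87 FPKM in controls. It was at 9.05, 9.45 and 7.40 FPKM in libraries labelled cKO, where the lowest value was in replicate 3. Its log2 fold change was -0.19 (95% interval -0.45 to 0.07, adjusted p = 0.481 from limma), with -0.27 without control replicate 3 and -0.10 without cKO replicate 3.

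**Figure D2:**
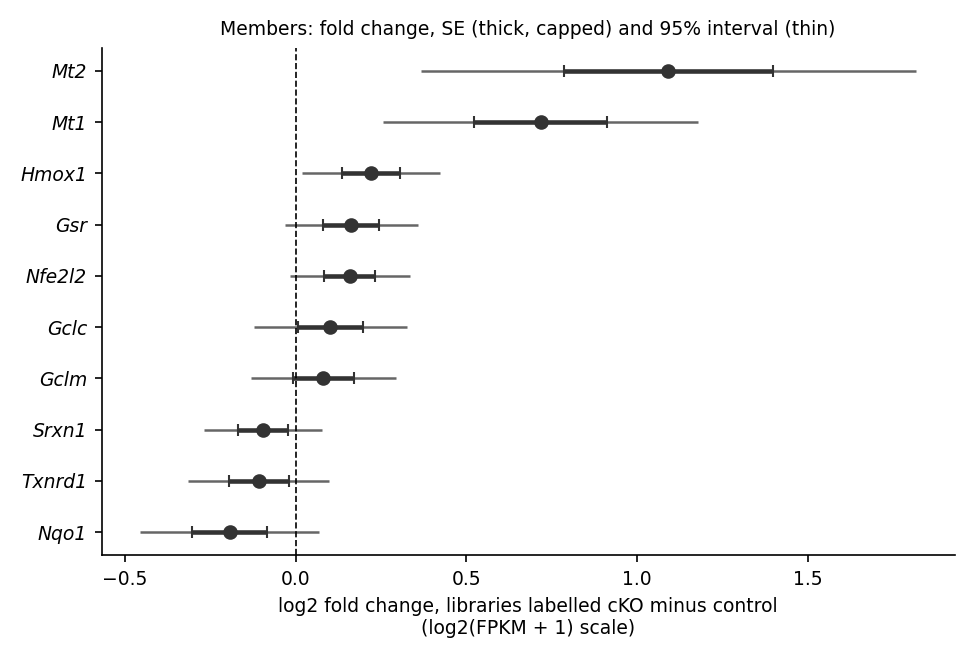
Log2 fold change (x axis, libraries labelled cKO minus control, log2(FPKM + 1) scale) of the 10 genes, with the SE as thick capped bars and the 95% interval as thin lines. The intervals of Mt2, Mt1 and Hmox1 lie above 0 and those of the other 7 genes include 0, with Nqo1 lowest at -0.19.

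The order of levels in control libraries ran from Mt1 (256 FPKM) through Hmox1 (138), Mt2 (135), Txnrd1 (51.8), Nfe2l2 (46.2), Srxn1 (21.8), Gclm (16.0), Gsr (10.4) and Nqo1 (10.00) to Gclc (5.37). Hmox1 and Mt2, Txnrd1 and Nfe2l2, and Gsr and Nqo1 overlapped in their ranges over the control libraries and could not be ordered. All other neighbours in this order had ranges that did not overlap. In the libraries labelled cKO the mean of Mt2 (298 FPKM) lay above that of Hmox1 (161 FPKM), whereas the means of these genes were nearly equal in controls. Mt1, Mt2 and Hmox1 stood above 98.5%, 97.7% and 96.8% of all rows by their mean over the 6 libraries, and Gclc above 52.7%.

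Antioxidant response element cores, searched as TGACNNNGC on both strands, were found in the RefSeq promoter windows of 5 of the 7 members that had one (Gclm, Mt2, Nfe2l2, Srxn1 and Txnrd1, the last in 1 of its 3 windows). Of all RefSeq promoter windows, 12.4% held this core, which can overlap the AP-1 motif TGACTCA. No window was read for Hmox1, Gclc or Gsr. The 4 sites that lie before a start are printed because they bear on which genes carry the letters NRF2 is known to bind. Each is printed 5′ to 3′ on the strand of the gene with the core in capitals, and those of Gclm and Txnrd1 read in the opposite direction. They lie at chr3:122245413-122245441 (Gclm, plus strand), chr8:94172529-94172557 (Mt2, plus strand), chr2:75704885-75704913 (Nfe2l2, minus strand) and chr10:82859104-82859132 (Txnrd1, plus strand). Of these 4 genes, Mt2 was higher at an unadjusted p-value under 0.05 in the fit of all 6 libraries as deposited, and Nfe2l2 was so with median scaling, with quantile normalization and without control replicate 2 or cKO replicate 1.
Gclm: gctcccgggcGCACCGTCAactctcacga
Mt2: aaagggggtgTGACTCAGCgcggggggtg
Nfe2l2: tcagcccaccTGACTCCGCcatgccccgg
Txnrd1: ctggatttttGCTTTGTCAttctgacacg

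The wider pathway was taken from 8 lists of regulators, glutathione, thioredoxin, heme and iron, NADPH, detoxification, superoxide and metal genes outside the 10. Of 108 genes listed, 105 were found and 97 could be tested. In limma, no adjusted p-value among them was under 0.05. At an unadjusted p-value under 0.05, 6 of the 97 were higher (6.19%) and 14 were lower (14.4%) in the libraries labelled cKO, beside 5.37% and 7.76% of all rows. With the libraries set to the same median, the counts were 8 higher and 11 lower, beside 768 higher (6.63%) and 706 lower of the 11590 rows. The median log2 fold change was -0.03, beside -0.02 over all tested rows. Without cKO replicate 1, 11 were higher and 21 lower at the unadjusted threshold, where 9.30% of all rows were higher and 12.0% lower. Sqstm1, Slc3a2, Chac1, Sesn2 and Txnip then had an adjusted p-value under 0.05, as did 2.90% of all rows in either direction.

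Among the glutathione genes, 21 of the 25 found could be tested, 3 were higher and 2 were lower at an unadjusted p-value under 0.05, beside 5.37% and 7.76% of all rows. Chac1, which encodes an enzyme that degrades glutathione, was at 16.1, 13.4 and 17.3 FPKM in controls. In the libraries labelled cKO it was at 20.0, 63.1 and 53.5 FPKM, with replicate 1 close to the controls (log2 fold change 1.34, SE 0.39, adjusted p = 0.312 from limma). Slc3a2, the heavy chain of the cystine importer, was at 83.7 ± 9.47 and 141 ± 39.2 FPKM and the secreted peroxidase gene Gpx3 at 339 ± 35.2 and 428 ± 15.8 FPKM (SD, n = 3 each), log2 fold changes of 0.71 and 0.34. The light chain of the importer, Slc7a11, a known target of both NRF2 and ATF4, was scarce, at 0.66, 1.0 and 0.93 FPKM in controls and 0.90, 1.56 and 1.63 FPKM in libraries labelled cKO (adjusted p = 0.381 from limma). In the other direction, the glutathione synthetase gene Gss was at 14.4 ± 1.87 and 11.3 ± 1.25 FPKM and the glutaredoxin gene Glrx at 31.3 ± 4.45 and 23.5 ± 2.45 FPKM (SD, n = 3 each), log2 fold changes of -0.32 and -0.39. The abundant peroxidase gene Gpx1 differed little, with 276 ± 22.4 and 283 ± 9.42 FPKM (log2 fold change 0.04, 95% interval -0.14 to 0.22).

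Of 13 thioredoxin and peroxiredoxin genes, 1 was higher and 2 were lower at an unadjusted p-value under 0.05, counts within about 1 gene of the shares of all rows (5.37% and 7.76%). Txnip, which encodes an inhibitor of thioredoxin, was tight in controls at 7.98, 7.90 and 8.18 FPKM, and at 5.74, 3.46 and 2.52 FPKM in the cKO-labelled libraries (log2 fold change -0.93, SE 0.22, adjusted p = 0.312 from limma). Prdx1, a peroxiredoxin and known NRF2 target, was at 306, 331 and 325 FPKM in controls and at 303, 251 and 241 FPKM in libraries labelled cKO (log2 fold change -0.28, SE 0.10, adjusted p = 0.325 from limma). Sesn2, a stress-inducible sestrin, had 13.6 ± 0.300 and 20.5 ± 5.75 FPKM (SD, n = 3 each), with cKO replicate 1 again at the control level (13.9 FPKM). The values of Txn1 ranged from 108 to 226 FPKM in controls and from 114 to 183 FPKM in libraries labelled cKO, too widely to resolve a difference (log2 fold change -0.20, 95% interval -0.88 to 0.48).

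Heme and iron genes other than Hmox1 included none that was higher and 2 of 12 tested that were lower at an unadjusted p-value under 0.05, where 7.76% of all rows were lower. The iron exporter gene Slc40a1 was at 25.3, 17.9 and 19.1 FPKM in controls and at 14.9, 15.0 and 14.9 FPKM in libraries labelled cKO (log2 fold change -0.43, SE 0.12, adjusted p = 0.312 from limma). The heme transporter gene Slc48a1 had a log2 fold change of -0.20 (SE 0.07, adjusted p = 0.337). The ferritin genes, both known NRF2 targets, were among the most abundant transcripts of these lists. Ftl1 was at 2321 ± 136 and 2499 ± 172 FPKM (log2 fold change 0.11, 95% interval -0.08 to 0.29) and Fth1 at 1030 ± 146 and 1029 ± 60.5 FPKM (SD, n = 3 each; log2 fold change 0.01, 95% interval -0.25 to 0.27, negative under quantile normalization and without control replicate 1, control replicate 3 or cKO replicate 1).

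Genes that supply NADPH, the reductant used by Gsr, Txnrd1 and Nqo1 products, had a median log2 fold change of -0.21 over 7 tested genes, of which 0 were higher and 2 lower at an unadjusted p-value under 0.05, beside 5.37% and 7.76% of all rows. G6pdx, the entry enzyme of the pentose phosphate pathway, was at 36.0, 38.7 and 34.9 FPKM in controls and at 33.4, 30.4 and 32.3 FPKM in libraries labelled cKO, without overlap (log2 fold change -0.19, SE 0.07, adjusted p = 0.342 from limma). Taldo1, the transaldolase of the same pathway, had a log2 fold change of -0.29 (SE 0.10, adjusted p = 0.331). Of 13 detoxification genes tested, 0 were higher and 4 lower at the same threshold and beside the same shares of all rows. These were the aldehyde oxidase gene Aox1 (-0.31), the carbonyl reductase gene Cbr3 (-0.19), the epoxide hydrolase gene Ephx1 (-0.43) and the aldose reductase gene Akr1b3 (-0.26 on the log2 scale), with adjusted p-values of 0.315 to 0.356 in limma. The calls of Cbr3 and Akr1b3 depended on the scaling. Their unadjusted p-values in limma were 0.061 and 0.052 with median scaling, and 0.054 and 0.055 with quantile normalization. The superoxide and peroxide enzymes gave 0 of 4 in either direction, with Sod1 at 315 ± 24.6 and 299 ± 28.8 FPKM (log2 fold change -0.08) and Cat at 47.1 ± 1.33 and 45.6 ± 1.14 FPKM (log2 fold change -0.05, SD with n = 3 each).

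**Figure D3:**
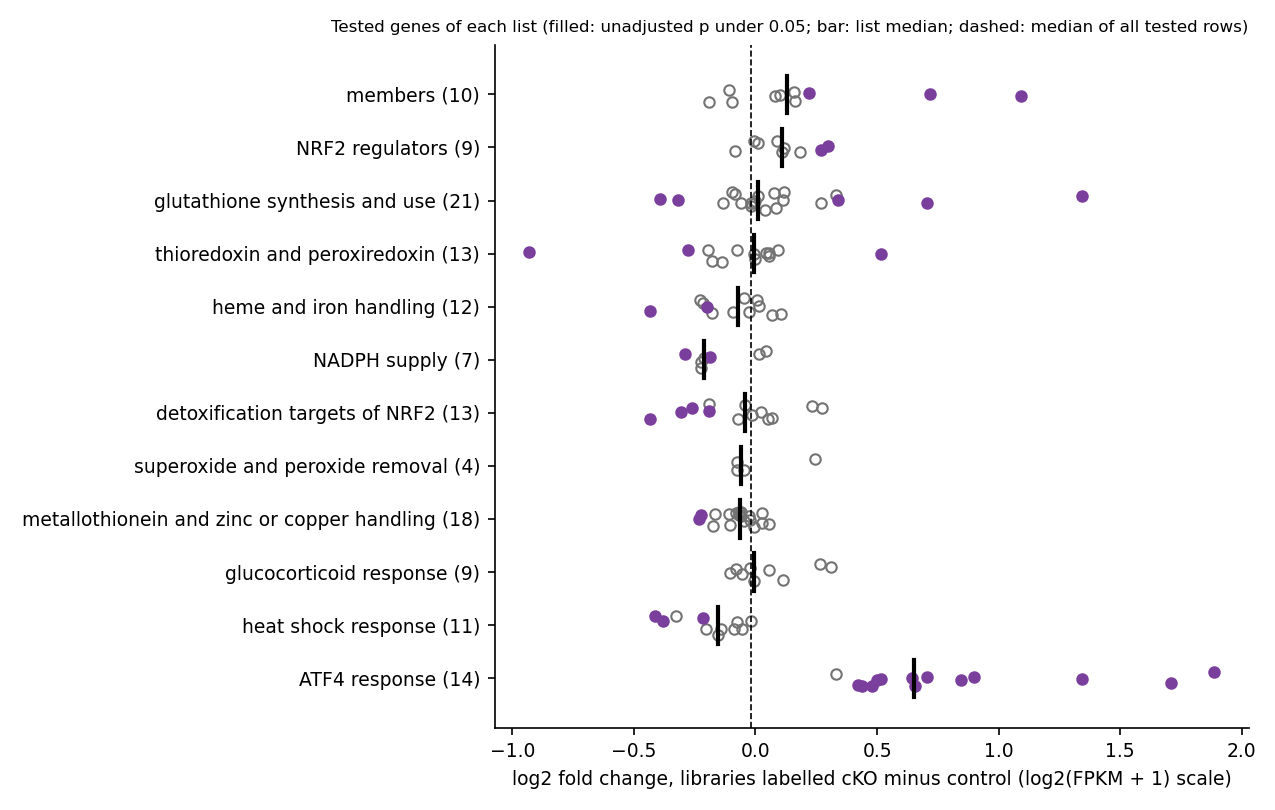
Log2 fold change (x axis, libraries labelled cKO minus control, log2(FPKM + 1) scale) of each tested gene, by list on the y axis with the number tested. Filled points have an unadjusted p-value under 0.05, bars are list medians and the dashed line is the median of all tested rows. The ATF4 list lies to the right (median 0.65), the NADPH and heat shock lists to the left (medians -0.21 and -0.16).

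Metallothionein and heme oxygenase genes also respond to glucocorticoids, heat shock and other stress, and NRF2 targets overlap with those of ATF4, the transcription factor of the amino acid and integrated stress response. Genes of these responses were therefore listed beside them. Of 9 glucocorticoid-response genes tested, 0 were higher or lower at an unadjusted p-value under 0.05, beside 13.1% of all rows (median log2 fold change -0.01). With either scaling, the replicate block, an intensity trend or the stricter filter, 1 was higher. The same count was found without control replicate 3 or cKO replicate 1. The median was -0.01 to 0.05 with 1 library left out. Of 11 heat shock genes, 0 were higher and 3 lower (Hsph1, Bag3 and Hspa1a, median of the list -0.16), beside 7.76% of all rows lower, with Hsph1 at 27.8 ± 0.977 and 21.2 ± 2.39 FPKM (SD, n = 3 each). Of 14 ATF4-response genes, 13 were higher at that threshold, beside 5.37% of all rows, and all 14 had a positive log2 fold change (median 0.65), although with all 6 libraries none passed after adjustment in limma. Without cKO replicate 1, 10 of the 14 passed after adjustment, beside 1.37% of all rows that were higher and passed. When 1 library was left out, 9 to 14 were higher at the unadjusted threshold, beside 372 to 1072 of all rows. The count of 14 was without cKO replicate 1, where 9.30% of all rows were higher. The heat shock count was 1 to 4 when 1 library was left out, 4 without cKO replicate 1 and 1 without control replicate 1, control replicate 2 or cKO replicate 3, and it was 1 with quantile normalization. The largest log2 fold change among the leading genes of that list by p-value was that of Trib3 (1.89), and the others were Atf5 (0.90), Asns (0.66), Mthfd2 (0.64) and Atf4 (0.48). This list holds Chac1, Slc3a2, Slc7a11 and Sesn2 of the lists above, and its genes were already known to be higher in these libraries when it was chosen. Its summed level was 699, 637 and 832 FPKM in controls and 858, 1427 and 1385 FPKM in the cKO-labelled libraries, the order of libraries within the latter group being replicate 1 far below the other 2, as for the metallothioneins. The part of that response in the values of Mt1, Mt2 and Hmox1 was not tested.

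**Figure D4:**
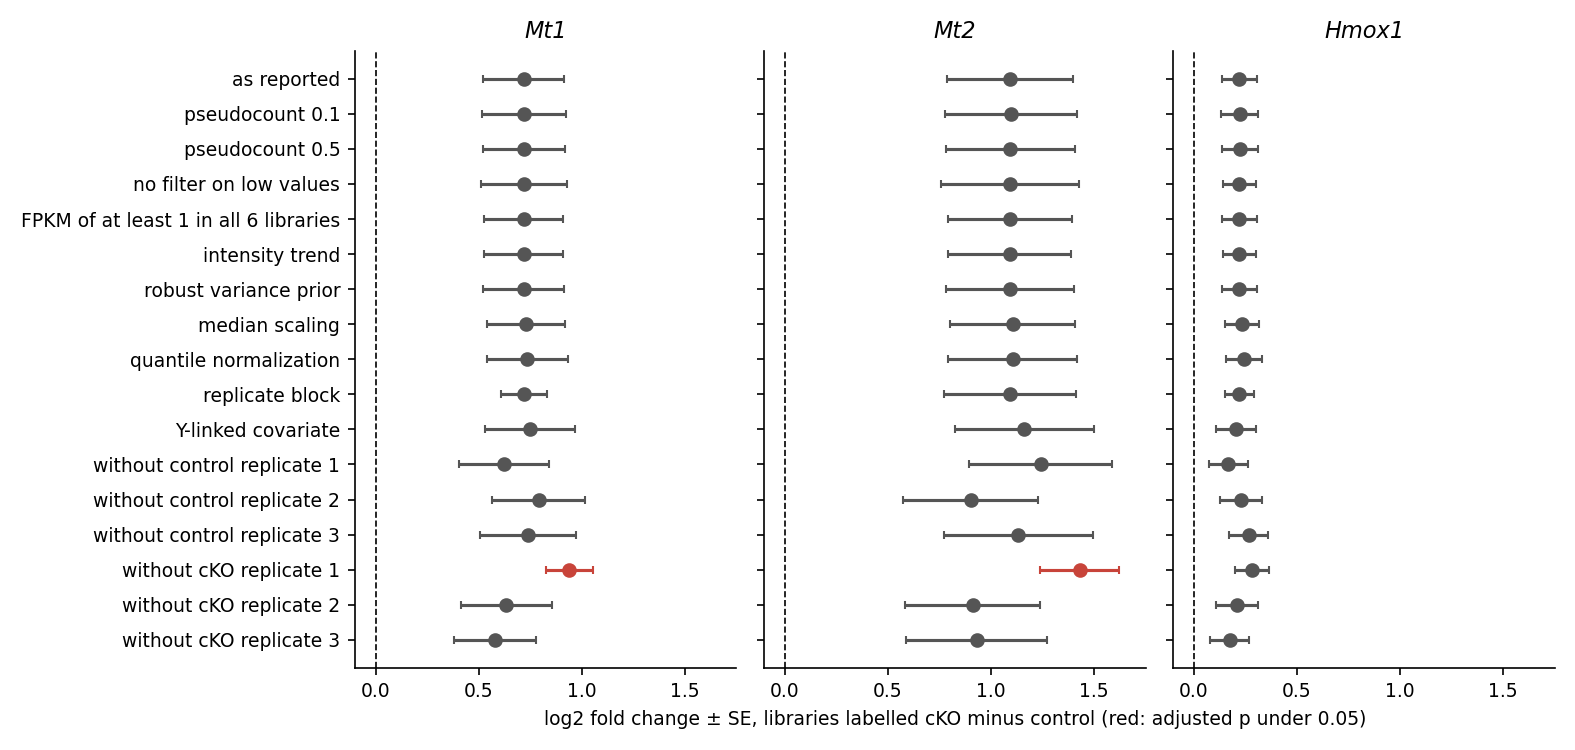
Log2 fold change ± SE (x axis, log2 scale) of Mt1, Mt2 and Hmox1 in the fit as reported and in 16 alternatives (y axis), with red points for an adjusted p-value under 0.05. All points lie above 0, and the only red ones are Mt1 (0.94) and Mt2 (1.43) without cKO replicate 1.

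Markers of other cells were examined because Hmox1 is abundant in macrophages and metallothioneins in several cell types. In bulk RNA, fewer cells of a type and less RNA per cell cannot be told apart. The 10 macrophage markers summed to 67.0, 38.9 and 101 FPKM in controls and to 53.1, 75.2 and 84.8 FPKM in libraries labelled cKO, mostly from Lyz2. Of 7 that could be tested, 0 had an unadjusted p-value under 0.05 in the reported fit, beside 13.1% of all rows in either direction. Cd68 was higher without cKO replicate 1 (log2 fold change 0.56, unadjusted p = 0.048 from limma). Aif1 was higher with the replicate block (log2 fold change 0.24, unadjusted p = 0.028 from limma). The leukocyte marker Ptprc was at no more than 0.18 FPKM in any library. The 3 erythroid markers found summed to at most 0.44 FPKM and the 6 endothelial markers to at most 4.06 FPKM. Muscle markers had 0 of 6 tested with an unadjusted p-value under 0.05 in the reported fit, beside the same 13.1% of all rows. Acta1 was higher without control replicate 3 (log2 fold change 0.38, unadjusted p = 0.0061 from limma). Where 5.37% of all rows were higher, cartilage markers had 3 of 6 higher and adipocyte markers had 2 of 4 higher, led by Fabp4 at 18.7 ± 4.37 and 62.8 ± 19.7 FPKM (SD, n = 3 each), while Adipoq and Plin1 stayed at or below 0.39 FPKM. Among the cartilage markers called, Acan and Col9a1 had unadjusted p-values of 0.13 and 0.073 in limma without cKO replicate 2. Without cKO replicate 3 they were 0.15 and 0.066. All 3 epithelial markers tested were higher, but Epcam, with 0 to 0.47 FPKM in controls and 1.21 to 1.58 FPKM in libraries labelled cKO, reached the filter only through the latter and so had to differ. The 6 listed summed to 0.46, 3.61 and 13.4 FPKM in controls and to 42.7, 36.9 and 18.2 FPKM in libraries labelled cKO, with Krt18 the most abundant. That sum was highest in cKO replicate 1, the library of its group with the lowest Mt1, Mt2 and Hmox1. Of the 9 preosteoblast markers, 0 were higher and 4 lower at an unadjusted p-value under 0.05, beside 7.76% of all rows lower, with Sp7 at 15.9 ± 2.35 and 11.1 ± 1.2 FPKM (SD, n = 3 each). The part of these markers in the results for the 10 genes was not tested.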

How the data were processed

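The authors mapped 150 bp paired-end reads of poly(A) RNA with HISAT2 to GRCm38, and the submitters' processing notes also name DESeq. The deposited values are FPKM, rounded to 2 decimals, for 3 libraries per group. The program that computed FPKM and the annotation are not given in the sources used here. The table gives no counts, so sequencing depth is unknown and counting error is not stated. In rows at 0 in 2 to 5 libraries the median lowest non-zero value was 0.03 FPKM, too near the rounding unit of 0.01 to recover reads.

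From these values, log2(FPKM + 1) was compared in limma 3.58.1 (R 4.3.3; lmFit and eBayes, two-sided, Benjamini-Hochberg adjustment) after a filter of at least 1 FPKM in at least 3 libraries. The fit was tested on simulated data. The 10 genes, the lists and the tests were chosen with earlier results of these data known. Named were the 10 genes, Nell2, 14 genes fixed for their role, and up to 5 per list with the smallest unadjusted p-values under 0.05. Ddx3y, Mt3 and the marker genes named with their lists were chosen after their values were seen. Alternatives covered the pseudocount, filter, variance prior, scaling, replicate number, Y-linked expression and each library left out.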

Additional observations from a re-analysis of the deposited data

How the results depend on the processing

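The 16 alternatives were run for the 4 counts, for Nell2 and for the 10 genes. No gene passed adjustment in the reported fit, so staying above that threshold says little about stability. With 1 library left out, 3 values passed it or changed sign, namely those of Mt1 and Mt2 without cKO replicate 1, at log2 fold changes of 0.94 and 1.43 with an adjusted p-value under 0.05, and Gclm without control replicate 1, at -0.0017 (range with 1 library left out -0.0017 to 0.14). Over all rows, 0 adjusted p-values were under 0.05, and 0 to 334 with 1 library left out, 334 without cKO replicate 1 and 2 without control replicate 3. The number of the 10 genes with an unadjusted p-value under 0.05 was 3, and 5 with median scaling or quantile normalization; the number whose groups did not overlap was likewise 3, and 5 with either scaling. Leaving out 1 library gave 2 to 4 and 3 to 6, while the share of all rows went from 13.1% to between 7.41% and 21.3% for the unadjusted p-value and from 18.3% to between 23.7% and 42% for groups that did not overlap, both highest without cKO replicate 1, as was the count of 6. With median scaling these shares were 12.7% and 17.6%, and with quantile normalization 12.6% and 17.5%. At the unadjusted threshold Hmox1, Nfe2l2, Gsr and Nqo1 changed side in at least 1 alternative, for example Hmox1 from 0.036 to 0.12 without control replicate 1 and Nfe2l2 from 0.070 to 0.033 with quantile normalization. The pathway genes with an unadjusted p-value under 0.05 numbered 20, and 10 to 32 with 1 library left out. The causes were not tested, except that fewer libraries make groups overlap less often by construction. Of the pathway genes named, Fth1, Keap1, Gpx1, Slc30a1 and Txn1 changed sign in at least 1 alternative, each with an unadjusted p-value above 0.05 in the reported fit. Nell2 had a log2 fold change of 0.25 to 0.93 with 1 library left out. The highest was without cKO replicate 2 (SE 0.16, unadjusted p = 0.00099, adjusted p = 0.596 from limma).

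Same-numbered control and cKO libraries share only a number. After subtraction of group means they correlated at 0.03, -0.17 and 0.21 for replicates 1, 2 and 3. With the replicate block, 0 genes had an adjusted p-value under 0.05. An unadjusted p-value under 0.05 was found for 4 of the 10 genes, beside 12.6% of all rows. Mt1, Mt2 and Hmox1 were higher, and Nqo1 in addition was lower. The log2 fold changes of 0.72 for Mt1, 1.09 for Mt2 and 0.48 for Nell2 were unaltered by construction.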
